A study of Mus musculus with 15 samples.

Results

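Ribosome biogenesis and nucleolar genes were followed as a list of 50 genes, chosen by symbol, whose products make and process ribosomal RNA and assemble the ribosomal subunits. All 50 were among the 11551 genes that appear in at least 1 of the 4 deposited tables. By role, 6 are nucleolar scaffold and chaperone genes, 6 belong to RNA polymerase I and its factors, 8 to the small nucleolar ribonucleoproteins (snoRNPs), 15 to small-subunit processing and 15 to large-subunit processing.

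RNA was sequenced from mouse Abelson pre-B cells, early B-lineage lines that grow under the v-Abl oncogene, with 5 groups of 3 libraries and 15 libraries in all. Every culture received imatinib, an inhibitor of that kinase, for 48 h. Art_shBCLAF1 and Art are Art -/- cells (lacking Artemis, the nuclease that opens hairpin-sealed DNA ends) with and without a short hairpin RNA named shBCLAF1. Rag_SPIC_tet_DOX_shBCLAF1, Rag_SPIC_tet_DOX and Rag_SPIC_tet_NoDOX are Rag -/- cells, which cannot make RAG breaks, whose name carries SPIC_tet. The first of these groups had doxycycline (DOX) and the hairpin, the middle one doxycycline alone and the last neither. The labels name no control hairpin, and the sources used here do not say whether a group is 1 clone or whether its 3 libraries were separate cultures. The p-values therefore measure only the spread between these libraries.

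Ribosome production starts in the nucleolus, where RNA polymerase I copies the ribosomal DNA into a long precursor. SnoRNPs guide its methylation and pseudouridylation, and large processing complexes cut and fold it into the small and large subunits. MYC is a textbook activator of many of these genes, and pre-B cells pass between a dividing stage with much ribosome production and a resting stage with little.

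Effective library sizes ran from 17200000 to 27100000 reads in 14 libraries and came to 5810000 reads in Art replicate 3. Every one of the 50 genes had at least 58 reads in each library. Art replicate 3 stood apart from the other Art libraries, in both directions among the 50 genes (from -1.45 for Nop58 to 1.73 for Npm3). The offset was more than 0.5 log2 units for 24 of the 50 genes, and for 6494 of 11545 genes of the whole set. These offsets moved with the GC content of the genes (Spearman rho 0.61 across the 50 genes and 0.62 across 11545 genes, all from that 1 library), and results that rest on it are given with and without it. The 3 Rag_SPIC_tet_DOX libraries also differed widely among themselves. Bclaf1 mRNA, the hairpin's named target, stood at 8.29, 8.35 and 8.32 log2 CPM (the log2 of read counts scaled to library size) in Art_shBCLAF1, against 7.81, 7.75 and 6.41 in Art. It stood at 7.99, 8.05 and 8.10 in Rag_SPIC_tet_DOX_shBCLAF1, against 7.76, 7.69 and 7.73 in Rag_SPIC_tet_DOX. The mRNA was higher, not lower, with the hairpin label, so directions below are those of the libraries labelled shBCLAF1. All 8 listed pre-B markers were found. Their summed CPM ran from 4789 to 5218 in Art_shBCLAF1 and from 7844 to 10780 in Art, and from 5960 to 6187 in Rag_SPIC_tet_DOX_shBCLAF1 and from 6011 to 8639 in Rag_SPIC_tet_DOX. Gene by gene, limma called 6 of the 8 lower and 0 higher in Art_shBCLAF1 than in Art, with a median log2 fold change of -0.92. In Rag_SPIC_tet_DOX_shBCLAF1 against Rag_SPIC_tet_DOX they were split, with 2 higher, 2 lower, 4 not passing and a median of 0.06. Over all genes, limma called 25% higher and 24.1% lower in the Art comparison, and 28.5% higher and 25.1% lower in the Rag comparison. Of 9 myeloid markers 6 were found, at 59.1 to 61.5 CPM in Art_shBCLAF1 and 32.9 to 36.1 in Art, and at 25.9 to 28.5 in Rag_SPIC_tet_DOX_shBCLAF1 and 60.9 to 75.4 in Rag_SPIC_tet_DOX. Between Art_shBCLAF1 and Art these 6 did not move together, since limma called Fcgr3 higher, Lyz2 and Adgre1 lower and the other 3 neither, with a median log2 fold change of -0.74. All 6 were lower in Rag_SPIC_tet_DOX_shBCLAF1 than in Rag_SPIC_tet_DOX. Of 8 T and NK markers only Lck and Klrb1c were found, at 10.8 to 10.9 CPM in Art_shBCLAF1, 87.6 to 112 in Art, 27.2 to 28.9 in Rag_SPIC_tet_DOX_shBCLAF1 and 41.2 to 50.6 in Rag_SPIC_tet_DOX. The part of these markers in the results was not tested.

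The genes formed 1 pattern across the 15 libraries. In 46 of 50, all 6 libraries labelled shBCLAF1 lay above all other 9 libraries, a pattern seen in 15.4% of all genes. The exceptions were Polr1c, Nop10, Bysl and Ppan, and without Art replicate 3 the count was 47 (19.2% of all genes). The 50 genes together took 0.920% ± 0.054 of the reads in Art_shBCLAF1 and 0.275% ± 0.004 in Art. They took 1.003% ± 0.021 in Rag_SPIC_tet_DOX_shBCLAF1, 0.458% ± 0.166 in Rag_SPIC_tet_DOX and 0.295% ± 0.004 in Rag_SPIC_tet_NoDOX (SD, n = 3 each). In bulk RNA, fewer cells of a type and less RNA per cell cannot be told apart, and CPM values are shares of the mRNA and not amounts per cell.

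**Figure D1:**
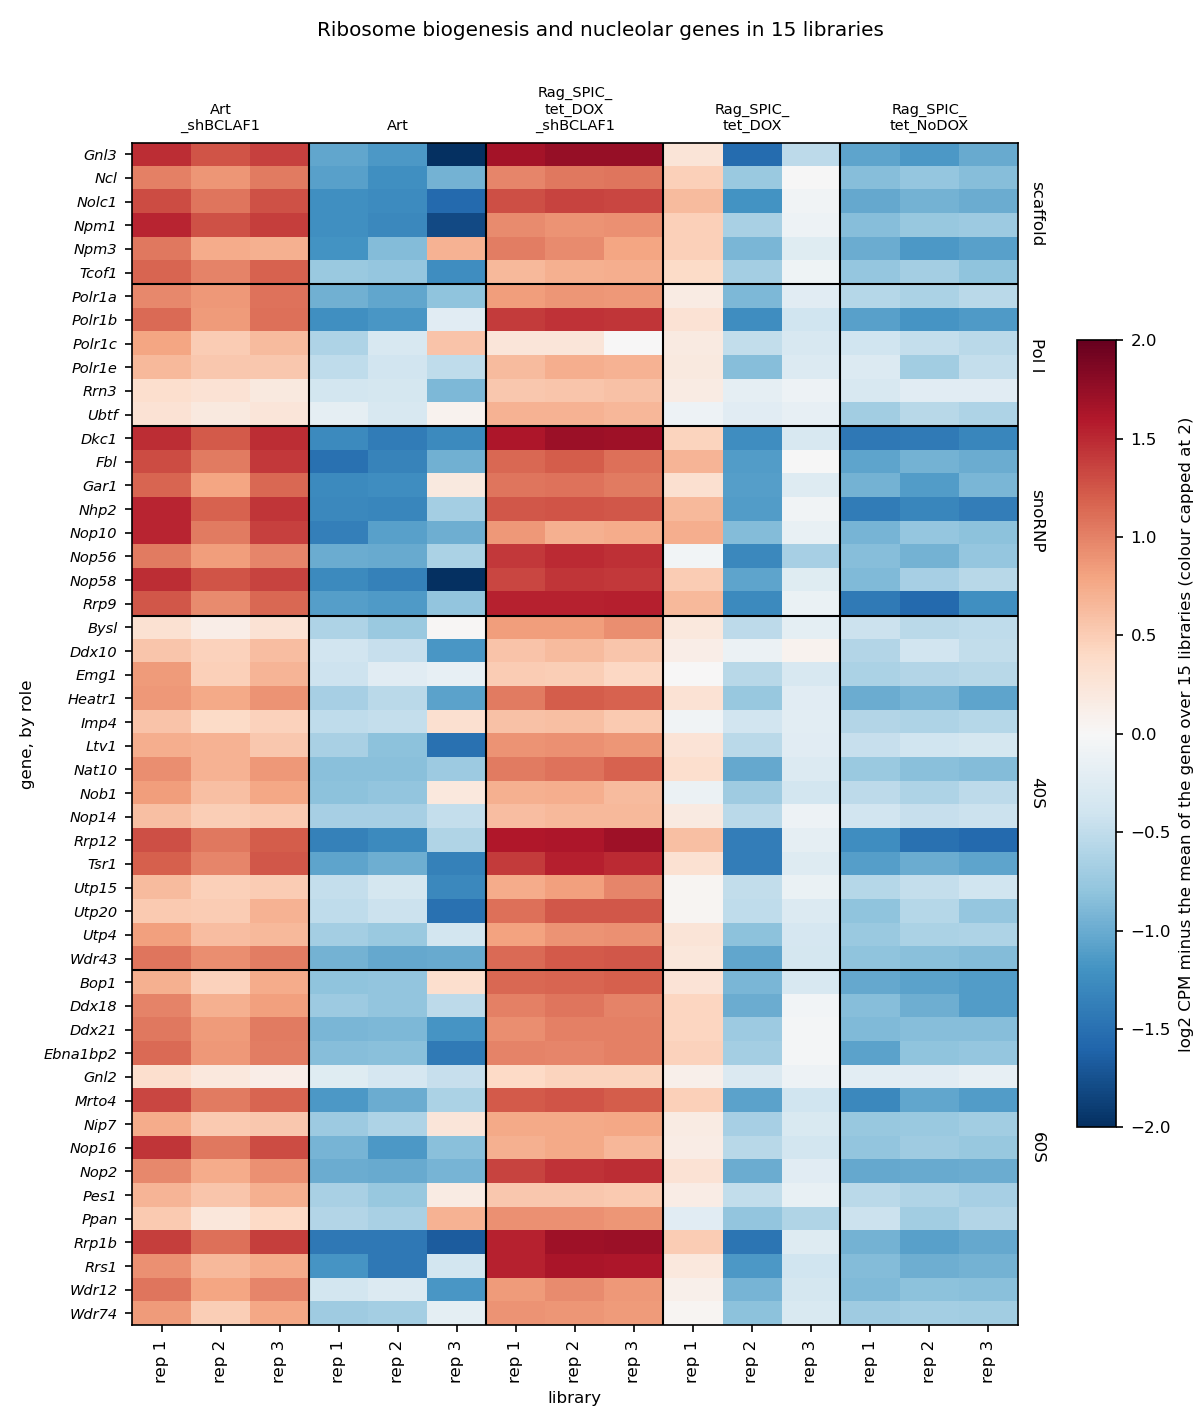
Heat map of log2 CPM of the 50 genes (rows, by role) in 15 libraries (columns, by group), each gene centred on its own mean. The 6 shBCLAF1-labelled libraries are red for 50 of 50 genes, the Art and Rag_SPIC_tet_NoDOX libraries are blue apart from 11 genes in Art replicate 3, and the Rag_SPIC_tet_DOX libraries run from red in replicate 1 to blue in replicate 2.

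The group with the highest mean was Rag_SPIC_tet_DOX_shBCLAF1 for 36 genes and Art_shBCLAF1 for the other 14. The lowest was Rag_SPIC_tet_NoDOX for 26 genes and Art for 24. The highest and lowest groups were not counted over all genes, so these splits have no background share. Between its highest and lowest group means a gene on the list spanned a median of 2.02 log2 units, with a range from 0.78 to 3.19, whereas the median over all 11551 genes was 0.93.

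Promoter sequences from RefSeq (GRCm38.p6, from 250 bases before to 50 after the start) were at hand for 43 of the 50 genes. The letters CACGTG, the canonical E-box that MYC and related factors bind and its own reverse complement, occurred in 9 of the 43 (20.9%). They occurred in 11.7% of the 9102 genes of the tables with a promoter entry. Counted by window, as some genes have more than 1, they occurred in 9 of the 51 windows of the 43 genes and in 7.15% of all 32851 windows. GAGGAAGT, an ETS-type word searched on both strands, occurred in 4 of the 43 (9.30%) and in 3.82% of the 9102 genes. Shown here are the 250 bases before the start of 2 genes that hold CACGTG (capitals) and of Nop58 and Gnl3, which had the highest change with the hairpin label in the Art and in the Rag line and do not hold it. Each is given 5′ to 3′ on the gene's strand, on a later build than the one the reads were mapped to.
Nop2, chr6:125131633-125131882, plus strand: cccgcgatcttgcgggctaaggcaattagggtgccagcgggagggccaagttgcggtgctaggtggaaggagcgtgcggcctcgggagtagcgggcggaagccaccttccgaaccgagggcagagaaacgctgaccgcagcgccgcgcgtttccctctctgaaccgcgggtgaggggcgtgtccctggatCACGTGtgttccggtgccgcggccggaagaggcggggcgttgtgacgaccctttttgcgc
Rrn3, chr16:13780449-13780698, plus strand: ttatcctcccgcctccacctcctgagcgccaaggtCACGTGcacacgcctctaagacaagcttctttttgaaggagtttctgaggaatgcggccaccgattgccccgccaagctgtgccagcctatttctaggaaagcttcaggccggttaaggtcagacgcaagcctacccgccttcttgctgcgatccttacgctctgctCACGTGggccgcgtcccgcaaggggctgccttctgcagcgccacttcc
Nop58, chr1:59684756-59685005, plus strand: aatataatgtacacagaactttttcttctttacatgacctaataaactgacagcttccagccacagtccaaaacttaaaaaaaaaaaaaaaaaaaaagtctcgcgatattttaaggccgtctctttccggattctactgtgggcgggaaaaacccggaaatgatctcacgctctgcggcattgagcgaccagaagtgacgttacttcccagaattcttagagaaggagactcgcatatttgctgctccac
Gnl3, chr14:31019132-31019381, minus strand: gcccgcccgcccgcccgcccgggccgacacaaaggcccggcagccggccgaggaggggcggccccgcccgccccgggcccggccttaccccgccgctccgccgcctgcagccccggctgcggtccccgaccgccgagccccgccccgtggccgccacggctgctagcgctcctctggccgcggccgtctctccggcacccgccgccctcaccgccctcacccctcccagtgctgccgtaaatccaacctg
The genes with CACGTG in a window were Imp4, Ltv1, Nop2, Pes1, Rrn3, Tsr1, Utp20, Utp4 and Wdr43. Their median log2 fold change with the hairpin label was 1.39 in the Art line and 1.18 in the Rag line, against 1.72 and 1.21 for the 34 genes without the letters. These medians are descriptions of the lists.

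The hairpin label was compared within the Art line first, by limma over all 11551 genes with an adjusted p below 0.05 as the threshold. Of the 50 genes, 45 were higher in Art_shBCLAF1 than in Art and none was lower, where 25% of all genes were called higher and 24.1% lower. The median log2 fold change was 1.70, against 0.05 over all genes, and 41 of the 50 stood at least 1 log2 unit higher, against 17.3% of all genes. In 48 of the 50 the groups did not overlap, where 33.9% of all genes had Art_shBCLAF1 wholly above Art. In the Rag line 48 of 50 were higher in Rag_SPIC_tet_DOX_shBCLAF1 than in Rag_SPIC_tet_DOX and none was lower, where 28.5% of all genes were called higher and 25.1% lower. The median there was 1.21, against 0.05 over all genes, with 37 of the 50 at least 1 log2 unit higher, against 9.19% of all genes, and 48 of the 50 without overlap, against 35.5% of all genes. Set against Rag_SPIC_tet_NoDOX, all 50 were higher in Rag_SPIC_tet_DOX_shBCLAF1, with a median of 1.85 and no overlap, where 41% of all genes were called higher and 38.7% lower and 41.8% had Rag_SPIC_tet_DOX_shBCLAF1 wholly above. With each library centred on its median, the all-gene median in the Art line was -0.18 instead of 0.05 and 2155 genes were called higher and 3599 lower, against 2884 and 2780 without centring, while 42 of the 50 were called higher, none lower, with a median of 1.47.

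**Figure D2:**
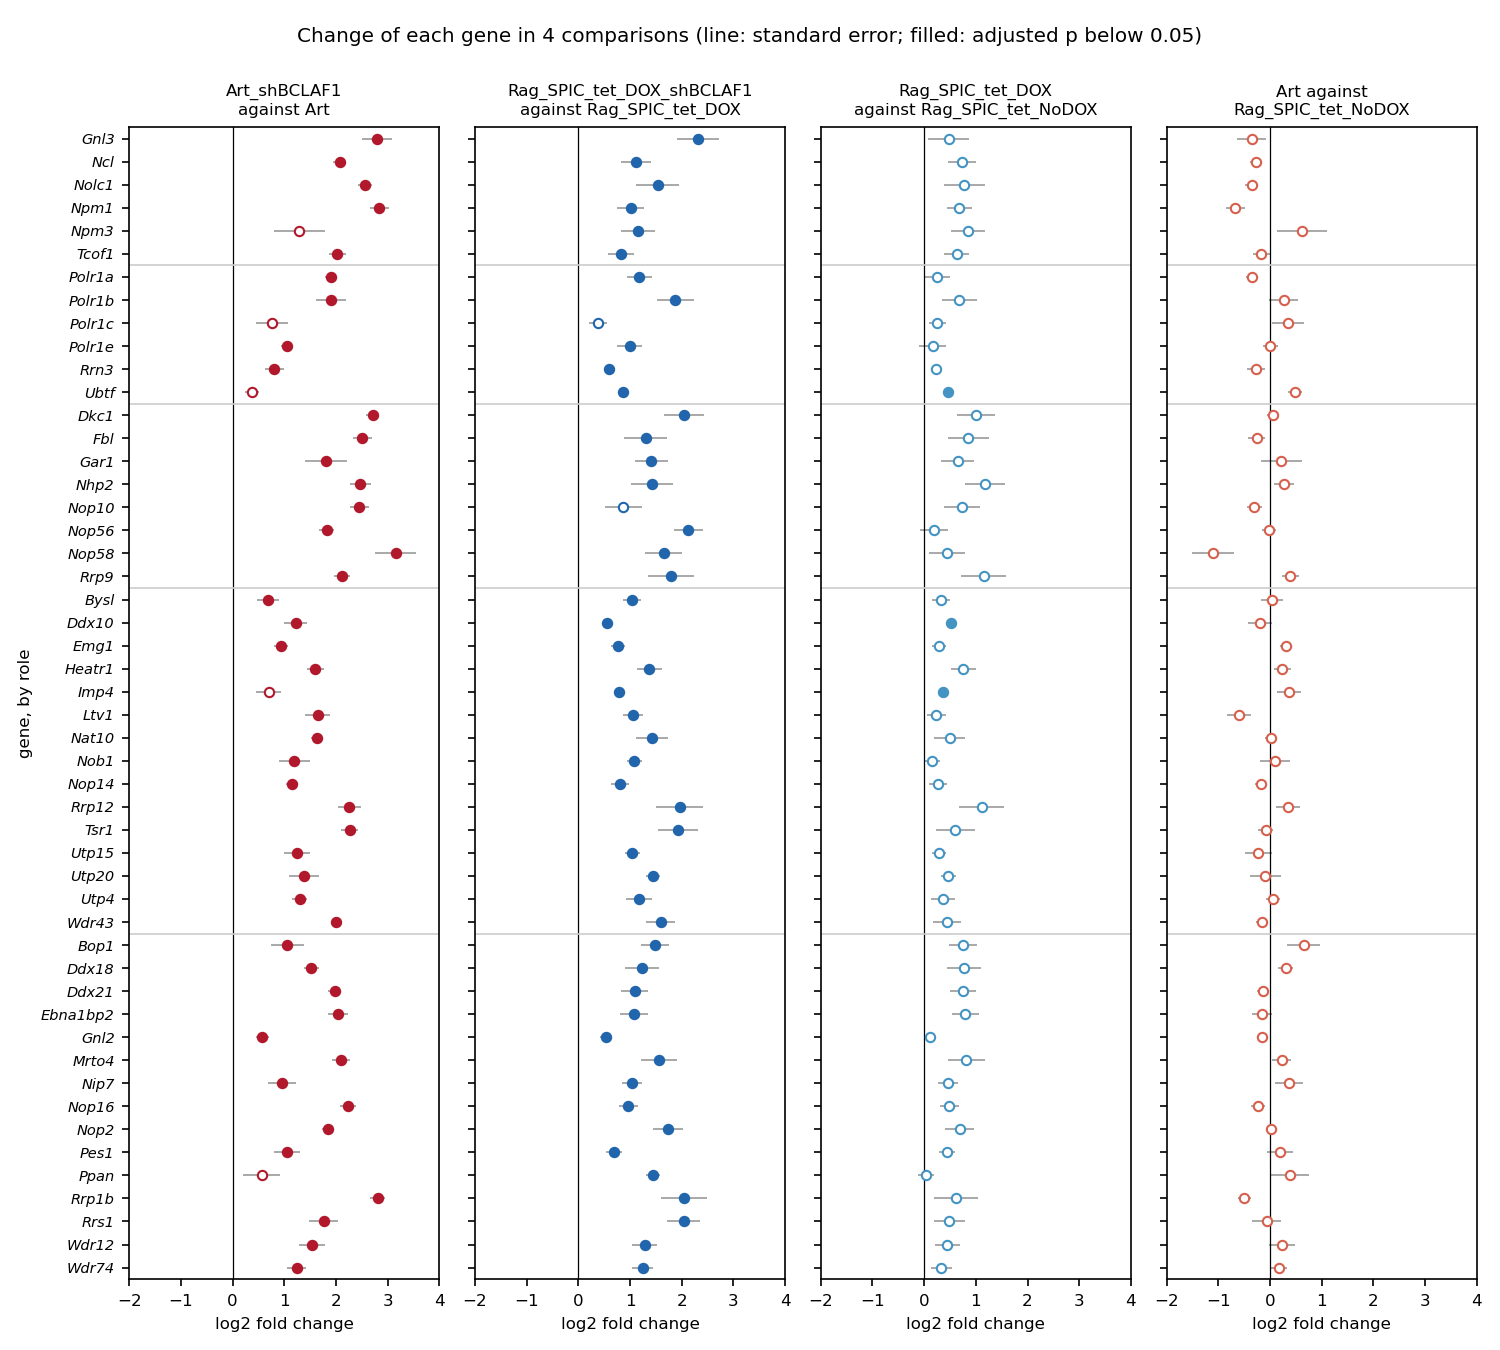
Log2 fold change (horizontal axes) of each of the 50 genes (rows, by role) in 4 comparisons, with standard errors as lines and filled points for limma adjusted p below 0.05. Filled points number 45, 48, 3 and 0 from the left panel to the right, and the right panel scatters around 0.

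All genes of the nucleolar scaffold group were higher with the label in the Rag line, and 5 of 6 in the Art line, with median log2 fold changes of 1.13 and 2.32. Ncl encodes nucleolin, an abundant RNA-binding protein of the nucleolus. It stood at 11.21, 11.09 and 11.24 log2 CPM in Art_shBCLAF1, against 9.11, 8.97 and 9.25 in Art. In the Rag line it stood at 11.18, 11.25 and 11.26 in Rag_SPIC_tet_DOX_shBCLAF1, 10.68, 9.46 and 10.20 in Rag_SPIC_tet_DOX and 9.35, 9.42 and 9.35 in Rag_SPIC_tet_NoDOX. The labelled libraries lay above all others in both lines, and all Rag_SPIC_tet_DOX libraries lay above Rag_SPIC_tet_NoDOX. The change was 4.20-fold in the Art line (log2 2.07, SE 0.13, limma adjusted p = 0.000146) and 2.17-fold in the Rag line (log2 1.12, SE 0.29, limma adjusted p = 0.0171).

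Npm1 encodes nucleophosmin, a histone and ribosome chaperone that also carries subunits out of the nucleus. It had 9.73, 9.47 and 9.58 log2 CPM in Art_shBCLAF1, against 6.98, 6.91 and 6.39 in Art. It had 9.14, 9.10 and 9.12 in Rag_SPIC_tet_DOX_shBCLAF1, 8.67, 7.55 and 8.11 in Rag_SPIC_tet_DOX and 7.36, 7.45 and 7.47 in Rag_SPIC_tet_NoDOX. The groups did not overlap in either line, and the gap was wider in the Art line, with 7.13-fold (limma adjusted p = 0.000165) against 2.02-fold in the Rag line (limma adjusted p = 0.0172). Nolc1, whose product shuttles snoRNPs to the nucleolus, stood at 8.49, 8.25 and 8.45 in Art_shBCLAF1, against 5.96, 5.92 and 5.63 in Art. In the Rag line Nolc1 stood at 8.46, 8.53 and 8.51 in Rag_SPIC_tet_DOX_shBCLAF1, against 7.81, 5.99 and 7.10 in Rag_SPIC_tet_DOX. Its rise was 5.90-fold and 2.89-fold by limma (adjusted p = 0.000106 and 0.0213), and the 6 labelled libraries lay between 8.25 and 8.53 log2 CPM.

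Gnl3 (nucleostemin, a nucleolar GTPase of dividing cells) was among the genes with the widest change. It stood at 7.23, 7.01 and 7.12 log2 CPM in Art_shBCLAF1, against 4.71, 4.60 and 3.66 in Art, and at 7.41, 7.48 and 7.49 in Rag_SPIC_tet_DOX_shBCLAF1, against 6.01, 4.21 and 5.23 in Rag_SPIC_tet_DOX. Within each line every labelled library lay more than 1 log2 unit above every unlabelled one. The fold was 6.94 in the Art line and 4.96 in the Rag line (limma adjusted p = 0.000644 and 0.00473). Tcof1 encodes treacle, which aids RNA polymerase I transcription. It stood at 9.0, 8.83 and 9.01 in Art_shBCLAF1 against 7.09, 7.07 and 6.60 in Art, and at 8.49, 8.56 and 8.56 in Rag_SPIC_tet_DOX_shBCLAF1 against 8.23, 7.16 and 7.75 in Rag_SPIC_tet_DOX. Its log2 fold change was 2.02 in the Art line and 0.82 in the Rag line (limma adjusted p = 0.000327 and 0.0295), and 0.55 in the Rag line without Rag_SPIC_tet_DOX replicate 2. The exception in the Art line was Npm3, a smaller relative of Npm1, with 4.65, 4.34 and 4.31 in Art_shBCLAF1 and 2.40, 2.73 and 4.30 in Art. Art replicate 3 stood just below the lowest labelled library (log2 fold change 1.29, limma adjusted p = 0.0687), and without that library its log2 fold change was 1.87.

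RNA polymerase I and its factors had the smallest median change of the 5 roles in both hairpin-label comparisons, with log2 fold changes of 0.93 in the Art line and 0.92 in the Rag line. In the Art line 4 of 6 were higher, and in the Rag line 5 of 6. The catalytic subunit gene Polr1a stood at 7.04, 6.94 and 7.15 log2 CPM in Art_shBCLAF1 against 5.11, 5.02 and 5.27 in Art, and at 6.90, 6.95 and 6.93 in Rag_SPIC_tet_DOX_shBCLAF1 against 6.23, 5.17 and 5.84 in Rag_SPIC_tet_DOX. Polr1b, whose product forms the catalytic core with that of Polr1a, stood at 6.69, 6.40 and 6.65 in Art_shBCLAF1 against 4.33, 4.38 and 5.33 in Art, and at 6.94, 7.0 and 6.99 in Rag_SPIC_tet_DOX_shBCLAF1 against 5.84, 4.30 and 5.14 in Rag_SPIC_tet_DOX. Neither gene's labelled libraries overlapped the unlabelled ones. Polr1a rose 3.74-fold and 2.27-fold in the Art and the Rag line, and Polr1b 3.74-fold and 3.68-fold (limma adjusted p from 0.000163 to 0.00851).

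The initiation factors moved less. Rrn3 encodes the factor that brings RNA polymerase I to the promoter (TIF-IA) and carries a pair of CACGTG words in the promoter shown above. It stood at 6.94, 6.90 and 6.81 log2 CPM in Art_shBCLAF1 against 6.25, 6.26 and 5.72 in Art, and at 7.15, 7.16 and 7.20 in Rag_SPIC_tet_DOX_shBCLAF1 against 6.78, 6.44 and 6.51 in Rag_SPIC_tet_DOX. The groups did not overlap, and the rise was 1.75-fold and 1.51-fold (limma adjusted p = 0.0103 and 0.00331). Ubtf encodes UBF, the factor that holds ribosomal DNA open. It stood at 8.39, 8.29 and 8.34 in Art_shBCLAF1, against 7.92, 7.79 and 8.17 in Art. In the Rag line it stood at 8.80, 8.80 and 8.77 in Rag_SPIC_tet_DOX_shBCLAF1, 7.99, 7.87 and 7.94 in Rag_SPIC_tet_DOX and 7.41, 7.55 and 7.49 in Rag_SPIC_tet_NoDOX. The 3 Rag groups formed 3 separate steps with little spread. The log2 fold change with the label was 0.86 in the Rag line (limma adjusted p = 0.00026) and 0.38 in the Art line (limma adjusted p = 0.0548), or 0.49 without Art replicate 3 (limma adjusted p = 3e-05). Polr1c, a subunit shared with RNA polymerase III, did not pass in either line, with log2 fold changes of 0.76 and 0.38 (limma adjusted p = 0.0857 and 0.11) and overlapping groups in both.

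The snoRNP genes had the highest median of the 5 roles in both hairpin-label comparisons, with log2 fold changes of 2.46 in the Art line, where 8 of 8 rose, and 1.54 in the Rag line, where 7 of 8 rose. Fbl encodes fibrillarin, the methyltransferase of box C/D snoRNPs. It stood at 6.40, 6.13 and 6.51 log2 CPM in Art_shBCLAF1 against 3.61, 3.77 and 4.14 in Art, and at 6.25, 6.31 and 6.19 in Rag_SPIC_tet_DOX_shBCLAF1 against 5.78, 3.98 and 5.09 in Rag_SPIC_tet_DOX. Its log2 fold change was 2.51 in the Art line and 1.30 in the Rag line (limma adjusted p = 0.000228 and 0.0359). The Rag value was 0.82 without Rag_SPIC_tet_DOX replicate 2, the lowest library of that group.

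Nop56 and Nop58 encode the paired scaffold proteins of the same particles. Nop56 stood at 7.85, 7.65 and 7.80 log2 CPM in Art_shBCLAF1 against 5.83, 5.81 and 6.18 in Art, and at 8.23, 8.30 and 8.29 in Rag_SPIC_tet_DOX_shBCLAF1 against 6.76, 5.53 and 6.15 in Rag_SPIC_tet_DOX. Nop58 stood at 7.83, 7.62 and 7.72 in Art_shBCLAF1 against 5.09, 5.02 and 3.60 in Art, and at 7.70, 7.79 and 7.78 in Rag_SPIC_tet_DOX_shBCLAF1 against 6.87, 5.32 and 6.13 in Rag_SPIC_tet_DOX. Both genes separated labelled from unlabelled libraries in both lines, and Nop58 was low in Art replicate 3. Nop58 rose 8.91-fold in the Art line, the widest change of the 50 there (log2 3.15, SE 0.40, limma adjusted p = 0.00136), and by 2.67 log2 units without Art replicate 3. Nop56 rose by 1.82 log2 units in the Art line and 2.12 in the Rag line (limma adjusted p = 0.000285 and 0.00177).

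Dkc1 encodes dyskerin, the pseudouridine synthase of box H/ACA snoRNPs and telomerase. It stood at 7.71, 7.45 and 7.70 log2 CPM in Art_shBCLAF1 against 4.95, 4.82 and 4.96 in Art, and at 7.85, 7.94 and 7.92 in Rag_SPIC_tet_DOX_shBCLAF1 against 6.68, 4.98 and 5.91 in Rag_SPIC_tet_DOX. Its log2 fold change was 2.71 (SE 0.12) and 2.05 (SE 0.39), by limma at adjusted p = 7.85e-05 and 0.00582. No other gene of the 50 had a smaller adjusted p in the Art line. Its partner Gar1 stood at 7.14, 6.76 and 7.12 in Art_shBCLAF1 against 4.70, 4.74 and 6.16 in Art, and at 7.04, 7.06 and 7.02 in Rag_SPIC_tet_DOX_shBCLAF1 against 6.30, 4.87 and 5.71 in Rag_SPIC_tet_DOX. Gar1 rose by 1.81 and 1.41 log2 units (limma adjusted p = 0.0117 and 0.0122), and Art replicate 3 was its highest unlabelled value of that line. Nop10, the smallest protein of the particle, had 6.0, 5.86 and 5.88 in Rag_SPIC_tet_DOX_shBCLAF1 and 5.86, 4.27 and 4.99 in Rag_SPIC_tet_DOX. These groups overlapped (limma adjusted p = 0.0832), whereas in the Art line Nop10 rose by 2.45 log2 units (limma adjusted p = 0.000224).

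Of the 15 small-subunit genes, 14 rose in the Art line and 15 in the Rag line, with median log2 fold changes of 1.30 and 1.08. Rrp12, whose yeast counterpart is an export factor for both pre-ribosomal subunits, stood at 6.05, 5.81 and 5.98 log2 CPM in Art_shBCLAF1 against 3.41, 3.50 and 4.15 in Art. It stood at 6.37, 6.39 and 6.45 in Rag_SPIC_tet_DOX_shBCLAF1, 5.36, 3.38 and 4.59 in Rag_SPIC_tet_DOX and 3.52, 3.26 and 3.21 in Rag_SPIC_tet_NoDOX. Rag_SPIC_tet_DOX replicate 1 was high and replicate 2 was at the Rag_SPIC_tet_NoDOX level. Between Rag_SPIC_tet_DOX_shBCLAF1 and Rag_SPIC_tet_NoDOX it differed 8.41-fold, the widest such difference of the 50 (log2 3.07, SE 0.08, limma adjusted p = 1.01e-15). Ddx10, an RNA helicase gene, had the lowest change of the 15 with the label in the Rag line. It had 6.31, 6.38 and 6.30 in Rag_SPIC_tet_DOX_shBCLAF1 and 5.87, 5.63 and 5.81 in Rag_SPIC_tet_DOX (log2 fold change 0.56, limma adjusted p = 0.0022). In the Art line Ddx10 rose by 1.22 log2 units (limma adjusted p = 0.00554). Imp4, which in yeast aids the pairing of snoRNA with the precursor RNA, was the small-subunit gene that missed the threshold in the Art line, with 6.60, 6.42 and 6.50 in Art_shBCLAF1 and 5.52, 5.56 and 6.34 in Art (limma adjusted p = 0.0503). Without Art replicate 3 its log2 fold change was 0.97, against 0.70 with it.

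Of the 15 large-subunit genes, 14 rose in the Art line and 15 in the Rag line, with median log2 fold changes of 1.54 and 1.25. Nop2, an rRNA methyltransferase whose promoter is shown above, stood at 7.34, 7.12 and 7.29 log2 CPM in Art_shBCLAF1 against 5.39, 5.37 and 5.45 in Art, and at 7.72, 7.82 and 7.85 in Rag_SPIC_tet_DOX_shBCLAF1 against 6.66, 5.38 and 6.15 in Rag_SPIC_tet_DOX. The 3 Art libraries lay close together and far below the labelled ones. Nop2 rose by 1.85 and 1.73 log2 units (limma adjusted p = 0.000146 and 0.0042). Bop1 and Pes1 encode partners in the PeBoW complex, which is needed to mature large-subunit RNA. Bop1 stood at 7.15, 6.89 and 7.18 in Art_shBCLAF1 against 5.63, 5.64 and 6.77 in Art, and at 7.57, 7.60 and 7.62 in Rag_SPIC_tet_DOX_shBCLAF1 against 6.71, 5.51 and 6.11 in Rag_SPIC_tet_DOX. Pes1 stood at 7.25, 7.12 and 7.29 in Art_shBCLAF1 against 5.93, 5.81 and 6.74 in Art, and at 7.11, 7.11 and 7.09 in Rag_SPIC_tet_DOX_shBCLAF1 against 6.72, 6.08 and 6.43 in Rag_SPIC_tet_DOX. Both genes kept the groups apart, with Art replicate 3 near the labelled level. Their log2 fold changes in the Art line were 1.06 each (limma adjusted p = 0.0346 and 0.0145). Bop1 missed the threshold whenever any library other than Art replicate 3 was left out of the Art comparison (adjusted p from 0.0758 to 0.109), and was at 1.44 log2 units without Art replicate 3. Bysl and Nip7 missed it in the same settings, Pes1 and the late-cleavage endonuclease gene Nob1 without Art_shBCLAF1 replicate 1 or 3, and Gnl2 without Art_shBCLAF1 replicate 1.

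Rrp1b, a nucleolar processing and chromatin protein gene, was among the 3 with the highest change in the Art line. It stood at 7.05, 6.77 and 7.04 log2 CPM in Art_shBCLAF1 against 4.23, 4.23 and 3.99 in Art (6.98-fold, limma adjusted p = 8.33e-05), with no overlap. Ppan, a large-subunit assembly gene, had 7.26, 6.97 and 7.15 in Art_shBCLAF1 and 6.16, 6.10 and 7.44 in Art, so that Art replicate 3 was above every labelled one (limma adjusted p = 0.247). In the Rag line Ppan had 7.65, 7.65 and 7.62 in Rag_SPIC_tet_DOX_shBCLAF1 against 6.52, 5.96 and 6.13 in Rag_SPIC_tet_DOX, and rose by 1.44 log2 units (limma adjusted p = 0.000634). Gnl2, a GTPase gene of large-subunit export, changed least among the genes that passed in both lines, by 0.58 and 0.53 log2 units (limma adjusted p = 0.00897 and 0.00673). Across the 50 genes, all 50 passed in the Art line without Art replicate 3, where 40.6% of all genes were called higher. In the Rag line 48 passed without Rag_SPIC_tet_DOX replicate 2, where 30.6% of all genes were called higher, and the median log2 fold change was then 0.90, with 22 of the 50 at least 1 log2 unit higher, against 6.84% of all genes. Ncl, Npm1, Npm3, Nolc1, Tcof1, Fbl, Nhp2 and Ddx18 missed the threshold in the Rag line without Rag_SPIC_tet_DOX replicate 3 or without any 1 of the Rag_SPIC_tet_DOX_shBCLAF1 libraries, and Polr1e, Rrp9, Ebna1bp2 and Ddx21 without some of these, with no change of sign in any of the 50.

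Few of the genes passed a test for a different size of change in the Art and the Rag line. Missing that threshold does not show an equal change. An interaction term over 12 libraries called 4 genes with a higher change in the Art line than in the Rag line (Npm1, Nop10, Nop16 and Tcof1) and 1 with a lower one (Ubtf), whereas 31.3% of all genes were called, 14.3% in the Art direction and 17% in the Rag direction. The difference of log2 fold changes, Art line minus Rag line, was positive in 40 of the 50, against 51.8% of all genes, with a median of 0.31 against 0.03 over all genes. These values rested on single Rag_SPIC_tet_DOX libraries. Without replicate 1 the difference was positive in 27 of the 50 (median 0.04), against 50.6% of all genes (median 0.01). Without replicate 2 it was positive in 45 (median 0.55), against 51.9% of all genes (median 0.04). With libraries centred on their medians it was positive in 34 (median 0.18), against 44.6% of all genes (median -0.096). For Npm1 it was 1.82 (SE 0.34, limma adjusted p = 0.00278), for Nop10 1.58 (SE 0.44, limma adjusted p = 0.0206) and for Nop16, a large-subunit gene, 1.27 (SE 0.25, limma adjusted p = 0.00377). For Tcof1 it was 1.20 (SE 0.32, limma adjusted p = 0.0162) and for Ubtf -0.47 (SE 0.15, limma adjusted p = 0.031). The count of genes called was 19, all in the Art direction, without Rag_SPIC_tet_DOX replicate 2. There 35.3% of all genes were called, 17.6% in the Art direction and 17.7% in the Rag direction. The count was 11 without Art replicate 3, where 54.4% of all genes were called.

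**Figure D3:**
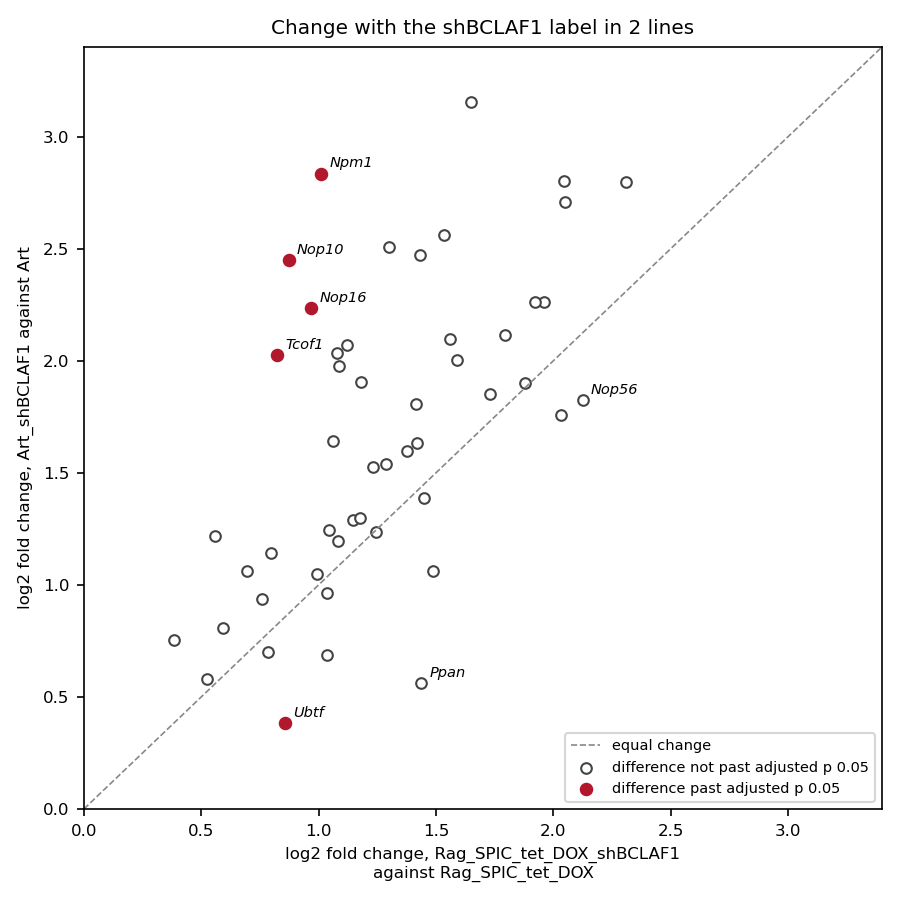
Log2 fold change with the shBCLAF1 label of each of the 50 genes in the Art line (vertical axis) against the Rag line (horizontal axis), where the dashed line marks equal change. Most points lie above the line, and the 5 filled points are the genes whose difference passed limma's adjusted p of 0.05.

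The libraries with doxycycline and without the hairpin were widely spread. Of the 50 genes 3 were called higher in Rag_SPIC_tet_DOX than in Rag_SPIC_tet_NoDOX and none lower, where 3.16% of all genes were called higher and 8.67% lower. These were Ubtf (log2 fold change 0.45, limma adjusted p = 0.0146), Ddx10 (0.51, limma adjusted p = 0.0222) and Imp4 (0.37, limma adjusted p = 0.0463). At an unadjusted p below 0.05 the count was 22, where 34.2% of all genes passed. All 50 fold changes were above 0 (Ppan, at 0.03, stood at -0.02 with libraries centred on their medians), with a median of 0.49 log2 units against 0.00 over all genes, and in 18 of the 50 the groups did not overlap, where 18% of all genes showed that. Of all genes, 50.67% were above 0 with all libraries. Without Rag_SPIC_tet_DOX replicate 1 the median was 0.29, and 47 of the 50 were above 0, against 50.02% of all genes. None of the 50 then reached 1 log2 unit, against 4 with all libraries. The shares of all genes at least 1 log2 unit higher were 0.73% and 2.14%. With all libraries, the widest of the 50 were Nhp2 (1.18, SE 0.39), Rrp9 (1.15, SE 0.43) and Rrp12 (1.11, SE 0.44). None of these passed (limma adjusted p = 0.0846, 0.112 and 0.127).

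In every one of the 50 genes the Rag_SPIC_tet_DOX libraries stood in the same order, with replicate 1 highest, replicate 3 next and replicate 2 lowest, an order seen in 33.5% of all genes. Replicate 1 exceeded replicate 2 by a median of 1.13 log2 units, from 0.12 for Ubtf to 1.98 for Rrp12, against -0.01 over all genes. On a scale with the Rag_SPIC_tet_NoDOX mean at 0% and the Rag_SPIC_tet_DOX_shBCLAF1 mean at 100%, the median gene stood at 57.7% in replicate 1, 29.3% in replicate 3 and -1.5% in replicate 2. The 3 libraries are replicates of 1 group and carry no label that separates them. Without replicate 2, 47 of the 50 were called higher, all except Polr1e, Gnl2 and Ppan, with a median of 0.84, where 20% of all genes were called higher. Without replicate 3, or without replicate 1 or 3 of Rag_SPIC_tet_NoDOX, none was called, but in these fits only 0.026%, 0.00866% and 0.0173% of all genes were called higher. The authors' deposited table for this pair lists 47 of the 50 genes, all higher in Rag_SPIC_tet_DOX, and 67.1% of all genes.

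**Figure D4:**
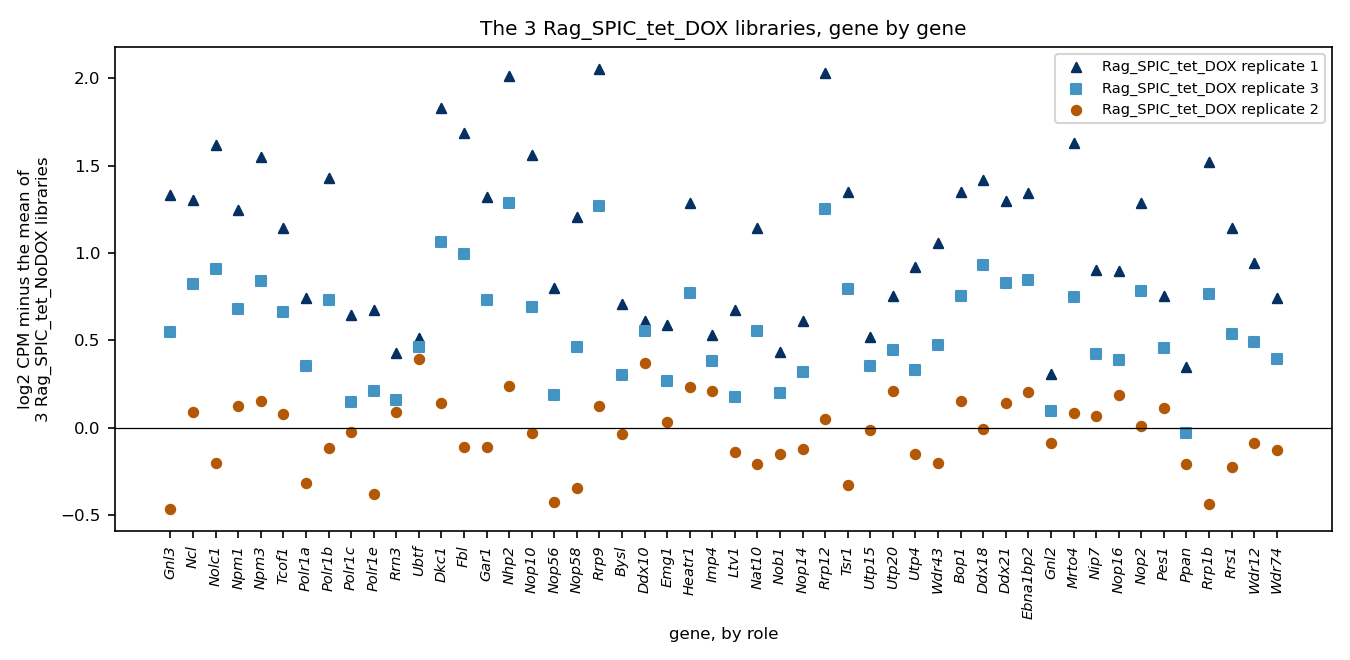
Log2 CPM of each of the 50 genes in the 3 Rag_SPIC_tet_DOX libraries, minus the mean of the 3 Rag_SPIC_tet_NoDOX libraries (horizontal line at 0). Triangles (replicate 1) lie above squares (replicate 3), and squares above circles (replicate 2), for every gene, and the circles scatter around 0.

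The order of the libraries was set beside Myc, the transcription factor gene named above. Myc stood at 8.89, 8.68 and 8.79 log2 CPM in Art_shBCLAF1 against 3.87, 4.08 and 4.26 in Art. It stood at 9.13, 9.20 and 9.29 in Rag_SPIC_tet_DOX_shBCLAF1, 8.06, 3.76 and 6.83 in Rag_SPIC_tet_DOX and 5.77, 5.41 and 5.60 in Rag_SPIC_tet_NoDOX. The Rag_SPIC_tet_DOX libraries thus had the same order for Myc as for all 50 genes. Spic, the gene named in the construct, had the opposite order there, at 3.72, 4.59 and 4.31. Across groups, however, Spic was higher with the hairpin label in both lines, as Myc was. It stood at 4.47, 4.34 and 4.80 in Art_shBCLAF1 against 0.85, 0.32 and 0.16 in Art. In the Rag line it stood at 7.50, 7.43 and 7.44 in Rag_SPIC_tet_DOX_shBCLAF1, and at 0.87, 0.18 and 1.41 in Rag_SPIC_tet_NoDOX. The part of Myc or Spic in the level of the 50 genes was not tested. With each gene centred on its mean over the 15 libraries, the median of the 50 lay between 0.75 and 0.98 in the 6 libraries labelled shBCLAF1, whose Myc ran from 8.68 to 9.29. Rag_SPIC_tet_DOX replicates 1 and 3, with Myc next below, had medians of 0.27 and -0.23.

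Below that, the order with Myc ended. The 6 Art and Rag_SPIC_tet_NoDOX libraries had medians between -0.85 and -0.75, while their Myc ran from 3.87 to 5.77. Rag_SPIC_tet_DOX replicate 2 had the lowest Myc of the 15 libraries, at 3.76, and a median of -0.84, within that same range. Myc was lower in Art than in Rag_SPIC_tet_NoDOX by limma (log2 fold change -1.53, SE 0.16, adjusted p = 0.0112), whereas the 50 genes had a median log2 fold change of 0.01 there, against -0.03 over all genes. No correlation over the 15 libraries is given because they cluster by group.

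**Figure D5:**
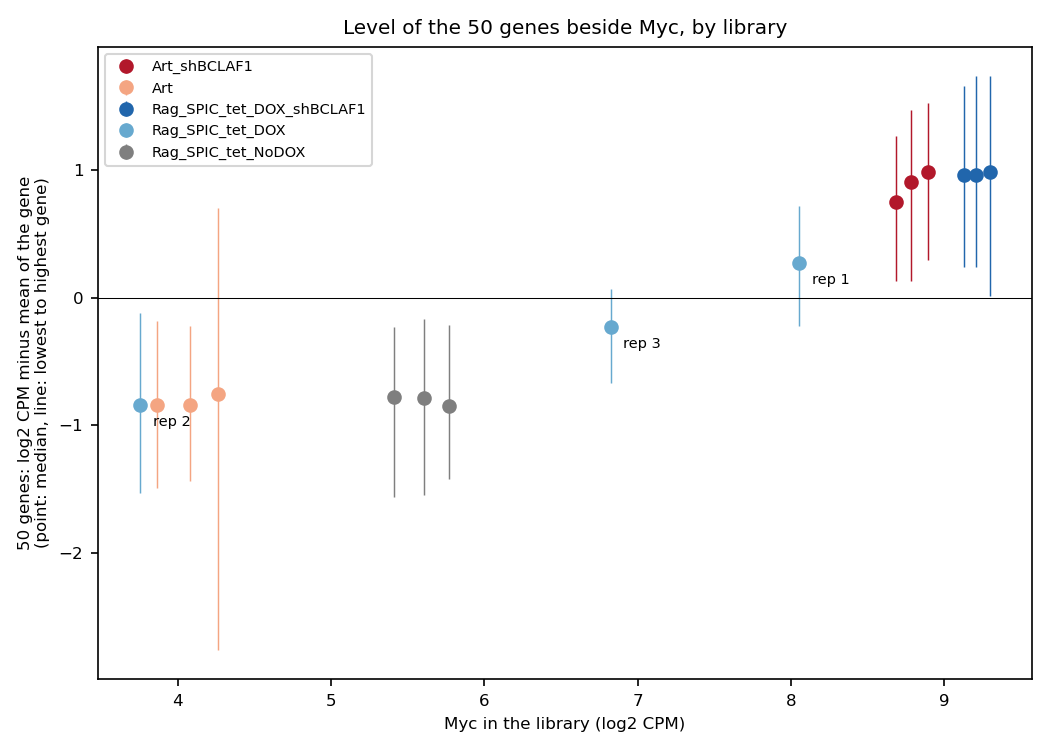
Median of the 50 genes (points, each gene as log2 CPM minus its mean over 15 libraries) with lines from the lowest to the highest gene, against Myc in the same library (log2 CPM). The points are level between -0.85 and -0.75 for the 7 libraries with Myc from 3.76 to 5.77, then step up through Rag_SPIC_tet_DOX replicates 3 and 1 to the 6 labelled libraries.

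Between the unlabelled lines, Art against Rag_SPIC_tet_NoDOX, limma called none of the 50 genes in either direction, where 2.58% of all genes were called higher and 2.56% lower. At an unadjusted p below 0.05 the count was 8, where 21.7% of all genes passed. The lowest values were -1.10 log2 units for Nop58 (SE 0.41), -0.67 for Npm1 (SE 0.18) and -0.59 for Ltv1 (SE 0.23), a small-subunit assembly gene, with limma adjusted p = 0.191, 0.0941 and 0.213. The highest were 0.65 for Bop1, 0.62 for Npm3 and 0.48 for Ubtf (limma adjusted p = 0.299, 0.499 and 0.103). The groups did not overlap for 7 genes with Art above and for 14 with Art below, where 18.4% and 19.4% of all genes showed these patterns. Without Art replicate 3 limma called 14 genes lower in Art and 6 higher, where 24.2% of all genes were called lower and 23.2% higher. Among the lower were Nop58 at -0.61 log2 units (adjusted p = 8.35e-06) and Npm1 at -0.48, and among the higher Ubtf at 0.37 and Bop1 at 0.28. The authors' deposited table for this pair lists 20 of the 50 genes, 14 of them lower and 6 higher in Art, and 55.3% of all genes.

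Other genes of the pathway were counted from lists of 108 further factors, of which 105 were in the tables. In the Art line 74 were higher with the hairpin label and 3 lower, with a median log2 fold change of 1.0, and in the Rag line 87 were higher and 1 lower, with a median of 0.72. Between Rag_SPIC_tet_DOX_shBCLAF1 and Rag_SPIC_tet_NoDOX 99 were higher and 4 lower, between Rag_SPIC_tet_DOX and Rag_SPIC_tet_NoDOX 6 were higher and 1 lower, and between Art and Rag_SPIC_tet_NoDOX none passed. Of all genes, 25% were called higher and 24.1% lower with the label in the Art line, 28.5% and 25.1% in the Rag line, 41% and 38.7% for Rag_SPIC_tet_DOX_shBCLAF1 against Rag_SPIC_tet_NoDOX, 3.16% and 8.67% for Rag_SPIC_tet_DOX and 2.58% and 2.56% for Art. The widest rises were those of Cd3eap, an RNA polymerase I subunit gene (log2 fold change 3.15 in the Art line and 2.03 in the Rag line), Lyar (3.01 in the Art line), a nucleolar zinc-finger gene, and Nle1 (1.88 in the Rag line), a large-subunit maturation factor. The 3 lower in the Art line were RNA polymerase I regulators, namely Baz2a, whose product silences ribosomal DNA (-0.97, limma adjusted p = 0.0121), Ttf1, which ends its transcription (-0.46, limma adjusted p = 0.0331), and Taf1c, a promoter-selectivity subunit gene (-0.42, limma adjusted p = 0.0328). Ttf1 was also the 1 lower in the Rag line (-0.38, limma adjusted p = 0.009).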

How the data were processed

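The 50 genes and all gene lists were chosen with earlier results of these data known. Per the submitters' processing notes, Subread, featureCounts 1.4.5, edgeR, limma and build mm9 were used, with no role given for each. The 4 deposited tables hold log2 CPM of all 15 libraries by the authors. Every value below 1000 reads returned to a whole read count within 0.05 reads once 0.5 was subtracted. The deposited p-values stand in columns with limma's names, per the file headers, and each table lists only protein-coding genes below an adjusted p of 0.05, so percentages of all genes refer to genes that passed in at least 1 table. The tables were joined to 11551 genes (152 duplicate rows merged, 0 unassigned sample columns).

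limma 3.58.1 in R 4.3.3 was fitted with a mean-variance trend to the 6 libraries of each comparison, and to 12 for the interaction. Tests were two-sided with Benjamini-Hochberg adjustment over all genes and a threshold of 0.05, and the fit was tested on simulated data. Fold changes are on the log2(CPM) scale with the authors' 0.5 reads added. Alternatives were a replicate block, array weights, all 15 libraries in 1 fit, 2 reads added, a mean log2 CPM above 1, centring each library on its median, and leaving out each library. Named with values were 16 genes fixed by role, and the 3 highest and 3 lowest per comparison, beside genes that missed a threshold or passed the interaction. The names shown in promoters and those lost without a library were chosen after their values were seen.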

Additional observations from a re-analysis of the deposited data

Results flagged for a closer look

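The change with the hairpin label differed between the Art line and the Rag line, by limma's interaction term, in 5 of the 50 genes. The same term called 31.3% of all genes. The difference of log2 fold changes, Art line minus Rag line, was 1.823 for Npm1, 1.577 for Nop10, 1.267 for Nop16, 1.204 for Tcof1 and -0.4721 for Ubtf. Each kept its sign without any 1 library, from 1.54 to 2.10 for Npm1, 1.17 to 1.96 for Nop10, 1.06 to 1.42 for Nop16, 0.95 to 1.48 for Tcof1 and -0.56 to -0.36 for Ubtf. The Ubtf call was lost without Rag_SPIC_tet_DOX replicate 2 or 3 and without any 1 of the 6 libraries labelled shBCLAF1, and the Nop10 call without Art_shBCLAF1 replicate 1.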

How the results depend on the processing

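Of the 50 genes, the count called was 39 to 50 between Art_shBCLAF1 and Art (45 as reported), 36 to 50 between Rag_SPIC_tet_DOX_shBCLAF1 and Rag_SPIC_tet_DOX (48) and 50 between Rag_SPIC_tet_DOX_shBCLAF1 and Rag_SPIC_tet_NoDOX over all alternatives run, every call being higher, where 16.3% to 42.9%, 16.9% to 48.6% and 27.2% to 43.8% of all genes were called higher. Between Rag_SPIC_tet_DOX and Rag_SPIC_tet_NoDOX the 3 calls became 0 with the replicate block, 48 with array weights, 8 with all 15 libraries in 1 fit, and 0 to 47 with 1 library left out. Of all genes, 0.0433% were called higher with the block, 36.3% with array weights, 2.99% in the 1 fit and 0.00866% to 20% with 1 library left out. Between Art and Rag_SPIC_tet_NoDOX the count was 24 with array weights (7 higher, 17 lower), 1 with all 15 libraries in 1 fit, and 0 to 20 with 1 library left out, against 0. There 56.7% of all genes were called with array weights, 16.9% in the 1 fit and 0% to 47.4% with 1 library left out. Genes that differed between the lines numbered 38 with array weights, where 79.3% of all genes were called, and 3 to 19 with 1 library left out, against 5. With 1 library left out, 23.1% to 54.4% of all genes were called for that difference. Apart from the 3 calls above, the replicate block moved no count by over 1.5 times, and same-numbered libraries did not deviate together in every pair (correlations from -0.23 to 0.20). The causes were not tested. Of 594 values of named genes under these alternatives 8 changed sign. In Rag_SPIC_tet_DOX against Rag_SPIC_tet_NoDOX, Ppan was at -0.020 log2 units with array weights and at -0.017 with libraries centred on their medians. In Art against Rag_SPIC_tet_NoDOX, Nop56 was at 0.031 with centring, and with array weights Gar1 was at -0.30 (0.22 with equal weights, and -0.26 and called by limma without Art replicate 3), Nop2 at -0.0022, Pes1 at -0.052, Polr1b at -0.062 and Tcof1 at 0.019. Array weights stopped before convergence in 3 fits. Depth was lowest in Art replicate 3, and with 3 libraries a group the precision rests on the spread between libraries.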

Other observations

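RNA polymerases II and III were counted beside RNA polymerase I. Of 12 genes for subunits of RNA polymerase II, which makes messenger RNA, 6 were higher with the hairpin label in the Art line. In the Rag line 8 were higher, and none was lower in either line. Some of these genes, Polr2h among them, encode subunits that RNA polymerases I and III also contain. The median log2 fold changes of the 12 were 0.66 and 0.45. The widest were Polr2d in the Art line (1.61, limma adjusted p = 0.0017) and Polr2h in the Rag line (1.11, limma adjusted p = 0.0045). Of 10 RNA polymerase III subunit genes, whose enzyme makes transfer RNA and the small ribosomal RNA, 5 were higher and 1 lower in the Art line, and 8 higher and 1 lower in the Rag line (medians 0.63 and 0.39). The paralogous subunit genes Polr3g and Polr3gl went opposite ways in the Art line, by 2.46 and -0.62 log2 units (limma adjusted p = 0.0013 and 0.0050). With the label 25% of all genes were called higher in the Art line and 28.5% in the Rag line. Whether these lists differ from the 50 genes was not tested.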
